A study of Mus musculus with 2 samples.

Results

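The genes examined here encode the subunits of the transcription factor NF-kB and the IkB proteins that hold it back: Rela, Relb, Rel, Nfkb1 and Nfkb2, the classical inhibitors Nfkbia, Nfkbib and Nfkbie, and the nuclear IkB proteins Nfkbiz and Bcl3. They were chosen by gene symbol, with earlier results of these data known. Of the 10 symbols 9 were paired with a gene probe set, out of 22206 gene probe sets on the array. Nfkb1 was not paired with one in the annotation used and was not analysed here. RNA came from F2 cells, a mouse vascular endothelial line of UV-induced tumour origin with a heterologous BALB/c and C57BL/6 background. In one culture the cells carried hBACCS2 and received light of 470 nm at 0.4 mW/mm2 for 4 h, on for 2 min and off for 18 min in turn, and in the other the cells carried hBACCS2 and received no blue light. hBACCS2 joins a plant light sensor to STIM1 and opens the Ca2+ channel ORAI1 under blue light. It was expressed with mCherry from a plasmid with the CAG promoter, which a part of the F2 cells took up, so each signal is an average over cells with and without it. The labels name no TNFα treatment for either culture. Per the sample labels hBACCS2 was present in both cultures, which is followed here. The design text of the series instead says that the control had none, and one shared treatment note mentions irradiation for both samples.

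NF-kB is a dimer of REL family proteins. In resting cells the classical IkB proteins keep it in the cytoplasm, and inflammatory signals such as TNFα activate the IKK kinase complex, which marks IkB for ubiquitination and destruction and so lets the dimer enter the nucleus. Several genes of the family are themselves switched on by NF-kB, Nfkbia being the best known case, so that the factor restores its own inhibitor. In vascular endothelium NF-kB drives leukocyte adhesion molecules and chemokines.

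Sequences just before the transcription start of the members are shown because kB motifs, the sites that NF-kB dimers bind, are the basis of that feedback. RefSeq promoters (build GRCm38.p6) were found for 7 of the 10 symbols, as 9 start sites, and the 250 bases before each start were searched on both strands with the kB consensus. In order, this was GGG, A or G, any base, A or T, C or T, C or T again, and CC. Sites that depart from it at any base were not counted. A match was present before 6 of the 9 starts and in 4 of the 7 genes, namely Rel, Nfkb2, Nfkbia and Nfkbie, against 3.9% of all 32851 promoters of the table. Rela, Nfkbib and Bcl3 held no match in this window. The promoters of Rel (chr11:23770970-23771219, minus strand), Nfkbia (chr12:55492648-55492897, minus strand), the first of 3 starts of Nfkb2 (chr19:46304487-46304736, plus strand) and Bcl3 (chr7:19822756-19823005, minus strand) are given 5′ to 3′, ending at the base before the start, with kB matches in capitals.
Rel: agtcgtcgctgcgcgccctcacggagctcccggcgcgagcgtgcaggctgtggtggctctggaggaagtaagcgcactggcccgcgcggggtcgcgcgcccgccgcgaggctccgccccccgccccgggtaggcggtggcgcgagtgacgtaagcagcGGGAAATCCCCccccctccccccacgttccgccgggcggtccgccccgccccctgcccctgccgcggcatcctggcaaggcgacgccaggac
Nfkbia: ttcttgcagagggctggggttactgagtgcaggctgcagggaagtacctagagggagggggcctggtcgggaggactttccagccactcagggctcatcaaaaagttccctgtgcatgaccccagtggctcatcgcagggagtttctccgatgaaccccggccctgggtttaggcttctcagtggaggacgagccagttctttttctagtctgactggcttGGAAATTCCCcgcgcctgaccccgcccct
Nfkb2: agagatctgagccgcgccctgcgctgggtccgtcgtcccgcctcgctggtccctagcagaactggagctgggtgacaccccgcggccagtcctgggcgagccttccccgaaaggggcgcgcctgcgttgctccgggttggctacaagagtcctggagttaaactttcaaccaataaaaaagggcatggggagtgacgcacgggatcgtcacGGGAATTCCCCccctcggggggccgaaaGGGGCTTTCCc
Bcl3: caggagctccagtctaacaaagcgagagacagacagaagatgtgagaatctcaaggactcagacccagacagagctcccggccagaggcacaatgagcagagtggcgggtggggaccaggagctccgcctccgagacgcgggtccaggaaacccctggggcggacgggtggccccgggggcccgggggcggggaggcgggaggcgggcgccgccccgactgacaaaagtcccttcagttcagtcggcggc
The capitals of Rel hold overlapping matches on both strands, 92 to 82 bases before the start. The match of Nfkbia lies on the other strand, 29 to 20 bases before the start. Nfkb2 has one stretch 39 to 29 bases before its first start and another 11 to 2 bases before it. An AP-1 motif (TGANTCA, searched on both strands and present in 6.75% of all promoters) was found before Nfkbie and before the second start of Nfkb2, and a CRE (TGACGTCA, in 1.55% of all promoters) before none of the 9 starts. A match describes these letters alone.

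The values are normalized log2 signals from Clariom S arrays, 1 array per condition. Without a replicate array the spread between cultures is unknown, and no test was made. Differences are log2 signal with blue light minus log2 signal without it, and ratios are the same difference on the linear scale. Following the methods of the study, a gene probe set was counted as higher or lower at a ratio above 2 or under 0.5 with a signal over 24, asked here of both arrays, which 11695 gene probe sets (52.7%) passed. Median signals of the 5222 negative control probes were 26.5 with blue light and 26.2 without it, and their 95th percentiles were 324.3 and 333.4. A signal over 24 can therefore still lie among the negative controls. The 8 spiked control transcripts differed by -0.22 to 0.11 between the arrays on the log2 scale. Of the endothelial marker genes 12 of 13 measured ones were over the signal cutoff, with summed signals of 429338 with blue light and 510469 without it, and Cldn5, a junction gene, was under it on both arrays. Much of the endothelial sum comes from Cdh5, at 231925 with blue light and 284467 without it. Of the 12, 5 were brighter with blue light, Vwf the most at a log2 difference of 0.57, and 7 were dimmer. Flt1, Nos3 and Kdr were lower by over 1.5-fold, beside 8.47% among all gene probe sets over the cutoff. The part of this in the members' values was not tested. Among the leukocyte, smooth muscle, fibroblast and epithelial markers 4 of 24 were over the cutoff, 1 in each list, and the summed signals of all 24 were 469.6 with blue light and 450.4 without it.

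None of the members passed the 2-fold cutoff. Of the 9 measured, 7 were over the signal cutoff on both arrays, with 0 higher and 0 lower, beside 0.958% higher and 1.37% lower among all gene probe sets over it. Among the 7, Rel and Nfkbiz were brighter with blue light and Bcl3, Rela, Nfkbib, Nfkbia and Nfkb2 dimmer. Their median log2 difference was -0.39, beside -0.01 over all gene probe sets over the cutoff. A looser ratio of 1.5 was passed upward by 2 of the 7, Rel and Nfkbiz, and downward by 2, Bcl3 and Rela, beside 7.55% upward and 8.47% downward among all. With 7 genes these shares are rough, and no more is read from them than the counts.

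**Figure D1:**
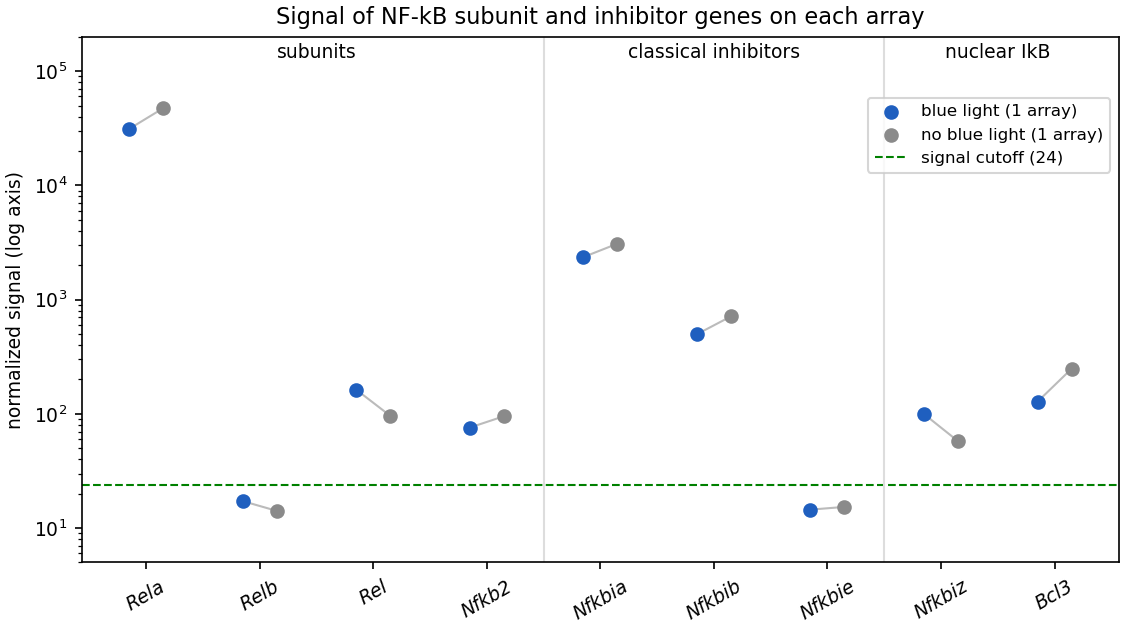
Normalized signal (log axis) of each measured member with blue light (blue, left) and without it (grey, right), 1 array each, with the signal cutoff of 24 as a dashed line. Heights of different genes are not comparable because each has its own probes. Relb and Nfkbie lie under the cutoff on both arrays, and only Rel and Nfkbiz of the others are higher with blue light.

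The subunit genes did not move one way. Rela encodes p65, the activating subunit of the main inducible dimer and the protein whose nuclear entry is usually taken as the sign of NF-kB activation. Its signal was 31132 with blue light and 47269 without it, a log2 difference of -0.60 and a ratio of 0.659. It was brighter than 99.6% of the negative control probes on both arrays. Among the 866 gene probe sets with a mean signal of 10000 or more, 5.2% were lower by over 1.5-fold, and the central 95% of their log2 differences ran from -0.75 to 0.55, a range that holds the value of Rela. Under quantile and loess scaling Rela no longer passed a ratio of 1.5.

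Rel encodes c-Rel, another activating subunit, best known from lymphocytes. Its signal was 163.1 with blue light and 96.2 without it, a log2 difference of 0.76 and a ratio of 1.70. The difference ran opposite to that of Rela. The signal of Rel exceeded that of 90.6% of negative control probes with blue light and 84.0% without it. Gene probe sets with a mean signal from 100 to 1000 were higher by over 1.5-fold in 7.79% of cases, and the central 95% of their log2 differences ran from -0.89 to 0.82, which holds Rel.

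Nfkb2 encodes the precursor p100, which is cut to the DNA-binding subunit p52 and, uncut, acts as an inhibitor of RelB. Its signal was 75.8 with blue light and 95.1 without it, a log2 difference of -0.33 that stayed within both cutoffs. Relb, the partner of p52 in the non-canonical pathway, had signals of 17.2 with blue light and 14.2 without it. Both lie under the signal cutoff and under the median of the negative controls, with 34.7% and 28.3% of those controls dimmer, so no ratio is given for Relb. Map3k14, the kinase NIK that starts the processing of p100, had signals of 93.8 with blue light and 126.4 without it, a log2 difference of -0.43.

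Both classical inhibitors that could be measured were dimmer with blue light. Nfkbia encodes IkB-alpha, the inhibitor that is degraded and resynthesised fastest after a stimulus. Its signal was 2354 with blue light and 3084 without it, a log2 difference of -0.39 and a ratio of 0.763. Nfkbib encodes IkB-beta, a slower-turning inhibitor. Its signal was 497.1 with blue light and 712.7 without it, a log2 difference of -0.52 and a ratio of 0.698. Neither passed a ratio of 1.5. Nfkbie, which encodes IkB-epsilon, had signals of 14.5 with blue light and 15.3 without it, both under the signal cutoff.

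The nuclear IkB genes Bcl3 and Nfkbiz differed in opposite directions. Bcl3 encodes a nuclear protein that binds p50 and p52 homodimers and can activate or repress through them. Its signal was 127.7 with blue light and 248.4 without it, a ratio of 0.514 and a log2 difference of -0.96. Of the negative control probes 88.0% were dimmer than Bcl3 with blue light and 93.8% without it. The ratio is just inside the 2-fold cutoff and passed it after median scaling of the arrays, which lowered the difference of every gene probe set by the same amount. The difference lies outside the central 95% of log2 differences of probe sets with a mean signal from 100 to 1000, where 9.75% were lower by over 1.5-fold. Nfkbiz encodes IkB-zeta, an inducible nuclear protein needed for a second wave of NF-kB target genes. Its signal was 99.6 with blue light and 57.6 without it, a log2 difference of 0.79 and a ratio of 1.73. Of the negative control probes 84.2% were dimmer than Nfkbiz with blue light and 73.8% without it. Among gene probe sets with a mean signal from 24 to 100, 10.1% were higher by over 1.5-fold, and the central 95% of log2 differences, from -0.92 to 0.88, holds Nfkbiz. Nfkbid, another nuclear IkB gene, which is not among the members, had signals of 6.5 with blue light and 7.2 without it and could not be judged.

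**Figure D2:**
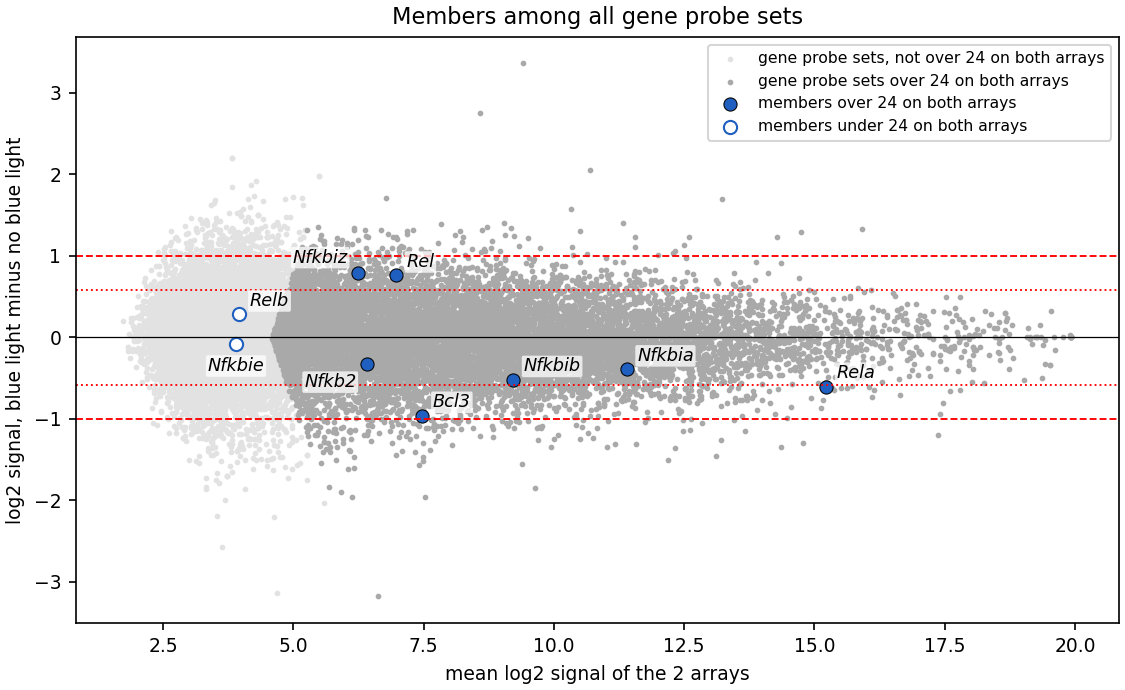
Log2 signal with blue light minus without it against the mean log2 signal of the 2 arrays for every gene probe set (grey), with the measured members in blue (open where under the signal cutoff). Dashed lines mark ratios of 2 and 0.5 and dotted lines a ratio of 1.5 either way. Bcl3 at -0.96 lies closest to a dashed line.

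Set beside their promoters, the genes with a kB match differed in sign. Rel, with matches, was at 0.76, while Nfkb2 and Nfkbia, also with matches, were at -0.33 and -0.39 on the log2 scale. Of those without a match in the window, Bcl3, Rela and Nfkbib were at -0.96, -0.60 and -0.52. Nfkbie, with a match, was under the signal cutoff, and no promoter was found here for Relb or Nfkbiz.

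Genes that act around the members were read from 7 lists by role, with 109 probe sets for 118 symbols, of which 95 were over the signal cutoff on both arrays. Past the 2-fold cutoff 1 was higher, Il1b, and 1 was lower, Birc3. Il1b, at a log2 difference of 1.01 and a signal without blue light under the median of the negative controls, was no longer counted under median, quantile or loess scaling, with 24 added or with a signal cutoff of 50. Birc3 was not counted with 24 added or with a cutoff of 100. The median log2 difference of the 95 was 0.00, with 47 above 0 and 47 below, beside 5669 above 0 and 5978 below among all 11695. At a ratio of 1.5, 8 of the 95 were higher and 7 lower, beside 7.55% higher and 8.47% lower among all gene probe sets over the cutoff, so these counts are near the background. The same background applies to each list.

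Among the genes of the machinery that destroys IkB, 6 of 7 probe sets were above 0, with a median log2 difference of 0.31. With 7 genes and 1 array per condition no more is read from this than the count. Btrc, the F-box protein beta-TrCP that recognises phosphorylated IkB, had signals of 316.3 with blue light and 173.2 without it, a log2 difference of 0.87. Nedd8, the ubiquitin-like protein that activates cullin ligases, had signals of 2867 with blue light and 1456 without it, a log2 difference of 0.98. Both passed a ratio of 1.5 and stayed within 2. Ube2d3, a ubiquitin-conjugating enzyme, was at 0.40 and the cullin gene Cul1 at 0.31, while Skp1, which links the F-box protein to the cullin, was at -0.38. These enzymes serve many other substrates than IkB. Fbxw11, the close relative of Btrc, was at 0.17, with signals of 3676 with blue light and 3266 without it.

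The IKK complex and its activating kinases gave differences of both signs, with 5 of 8 above 0 and a median of 0.12. Ikbkb, which encodes the catalytic subunit IKK-beta, had signals of 81.4 with blue light and 114.6 without it, a log2 difference of -0.49, and Ikbkg, the regulatory subunit NEMO, was at 0.40. Ikbke, an IKK-related kinase, passed a ratio of 1.5 upward with signals of 40.7 with blue light and 25.3 without it, the last of them under the median of the negative controls. Map3k1, a kinase of the stress MAP kinase pathways, was at 0.52. Map3k7, the kinase TAK1 that activates IKK, was at 0.15.

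Among the adaptors and ubiquitin enzymes upstream of IKK, 12 of 17 were below 0, with a median log2 difference of -0.22. Here too no more is read than the count. Birc3, a ubiquitin ligase and NF-kB target, was lower past the 2-fold cutoff, with signals of 58.2 with blue light and 129.3 without it. Of the negative control probes 73.9% were dimmer than Birc3 with blue light and 88.1% without it. Tab3, a partner of TAK1 that binds ubiquitin chains, had signals of 565.1 with blue light and 1021 without it, a log2 difference of -0.85. Ube2n, the enzyme Ubc13 that builds the chains IKK activation needs, had signals of 3968 with blue light and 6258 without it, a log2 difference of -0.66. Traf6 and Traf2, ligases of the interleukin-1 and TNF receptor routes, were at -0.47 and -0.45. Birc2, the paralogue of Birc3, was at 0.44.

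**Figure D3:**
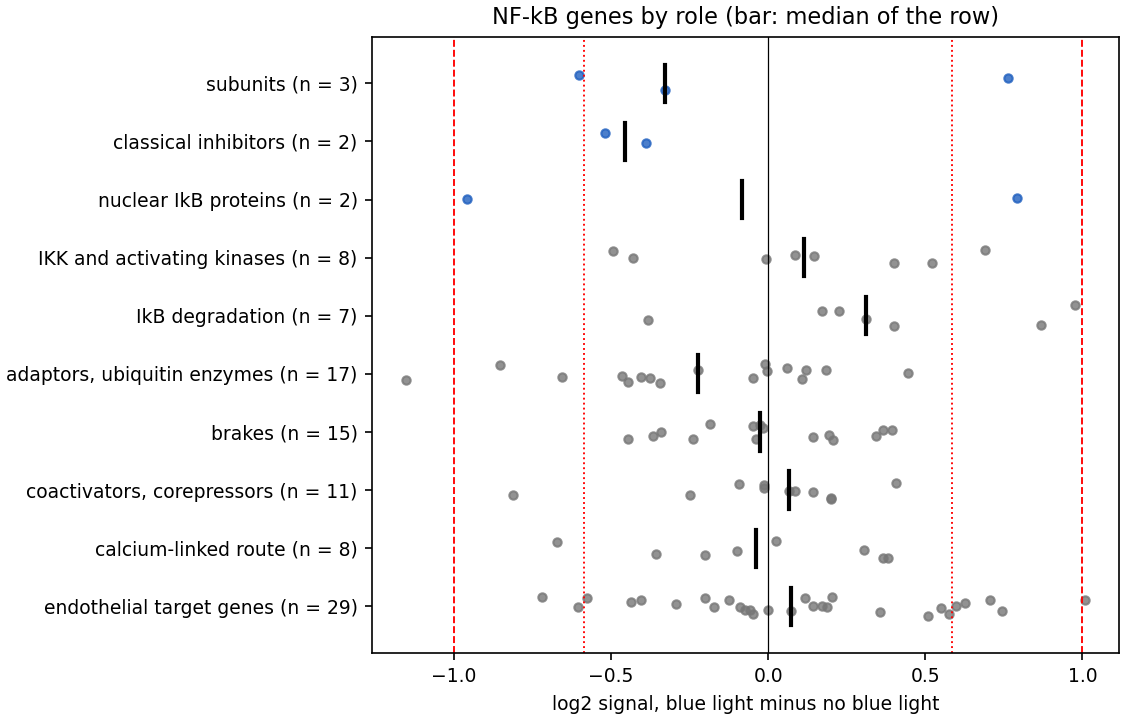
Log2 signal with blue light minus without it for each probe set over the signal cutoff on both arrays, by role, with members in blue, other genes in grey and the median of each row as a bar. Dashed lines mark ratios of 2 and 0.5 and dotted lines a ratio of 1.5 either way. The subunits and nuclear IkB proteins spread to both sides of 0, and the medians run from -0.45 for the classical inhibitors to 0.31 for IkB degradation.

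Brakes on the pathway had 0 of 15 probe sets past a ratio of 1.5 and a median of -0.03 that changed sign under quantile and loess scaling. Tnfaip3, the deubiquitinase A20, is a standard NF-kB feedback gene like Nfkbia. Its signal was 239.9 with blue light and 248.2 without it, a log2 difference of -0.05. Tnip1, a partner of A20, was at -0.45, while Pdlim2, linked to the breakdown of nuclear p65, the linear-chain deubiquitinase Otulin and the ubiquitin ligase Itch were at 0.39, 0.37 and -0.37. Cyld, another deubiquitinase, was at -0.04.

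Coactivators and corepressors had a median of 0.07, with Crebbp, the histone acetyltransferase CBP, at 0.20 and Ep300, its relative, at -0.01. Csnk2a1, a casein kinase 2 subunit that can phosphorylate p65, was the one past a ratio of 1.5, with signals of 1029 with blue light and 1807 without it, a log2 difference of -0.81. Rps6ka5, the kinase MSK1 that also acts on p65, was at 0.41, while Prkaca, a catalytic subunit of protein kinase A, was at -0.25 and the importin gene Kpna4 at 0.20.

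Genes that link Ca2+ or diacylglycerol to IKK had a median of -0.04. Prkca, the classical Ca2+-dependent kinase PKC-alpha, had signals of 699.3 with blue light and 1114 without it, a log2 difference of -0.67 that passed a ratio of 1.5. Camk2d and Camk2g, which encode subunits of the Ca2+/calmodulin-dependent kinase CaMKII, were at 0.38 and -0.36, and the adaptor gene Card9 was at 0.36. Malt1 and Bcl10, the paracaspase and adaptor that connect PKC to IKK, were at 0.31 and -0.10.

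Target genes of NF-kB known from endothelium had a median of 0.07, with 15 of 29 above 0 and 13 below. At a ratio of 1.5, 5 of the 29 were higher and 2 lower, beside 7.55% and 8.47% among all, and 10.1% higher among probe sets with a mean signal from 24 to 100, where Il1b, Ptgs2 and Cxcl1 lie. The higher ones were Il1b, Ptgs2, Ccl2, Irf1 and Cxcl1, of which Irf1, an interferon-linked transcription factor, had signals of 344.6 with blue light and 223.2 without it. Cxcl1, a neutrophil chemokine gene, had 68.5 with blue light and 45.2 without it. Il1b, an inflammatory cytokine gene, had signals of 49.8 with blue light and 24.8 without it, with 70.2% and 48.0% of the negative control probes dimmer. The chemokine gene Ccl2 and Ptgs2, which encodes cyclooxygenase-2, were at 0.70 and 0.74 on the log2 scale. The lower ones were F3, the tissue factor gene, at -0.72 and Bcl2l1, which encodes the survival protein BCL-XL, at -0.61. Tnf was under the signal cutoff, at 5.5 with blue light and 6.9 without it. Adhesion molecule genes differed in sign, with Sele at 0.36, Selp at 0.20, Vcam1 at -0.29 and Icam1 at -0.20. With blue light the signal of Icam1, 24.6, was under the median of the negative controls. Of the other chemokine genes, Cxcl5 and Cxcl10 were at 0.58 and 0.51. Ccl7, Ccl5, Cx3cl1 and Ccl20 were at -0.05, -0.40, -0.44 and -0.58, and Cxcl2 was under the signal cutoff.

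**Figure D4:**
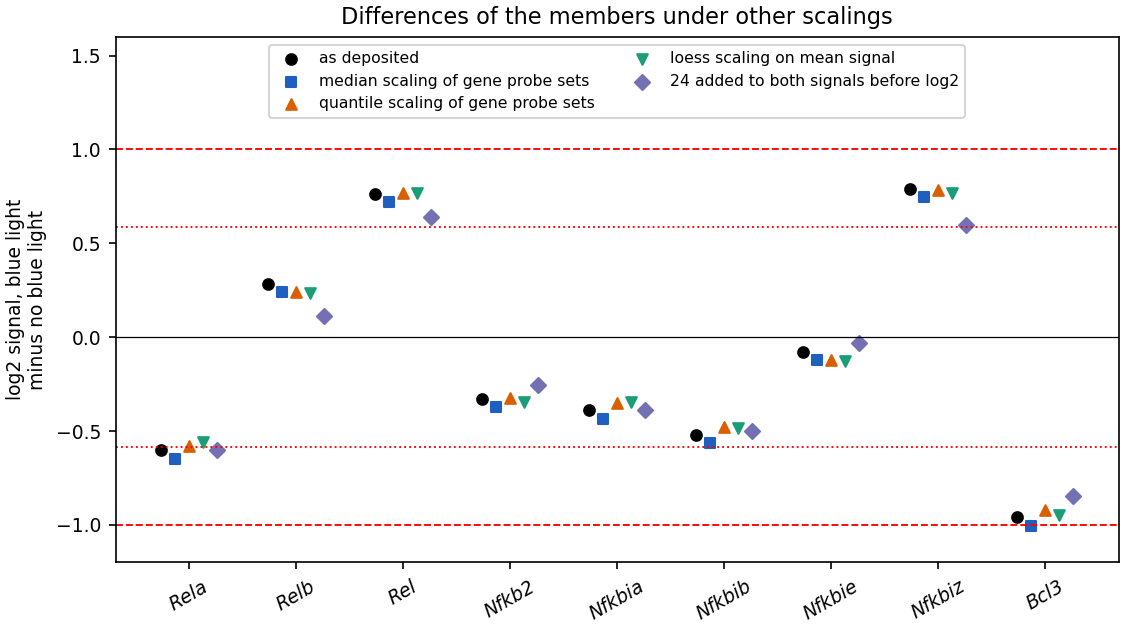
Log2 signal with blue light minus without it for each measured member as deposited, with 24 added to each signal, and after median, quantile and loess scaling. Dashed lines mark ratios of 2 and 0.5 and dotted lines a ratio of 1.5 either way. Every member keeps its sign under these 4 settings, of which adding 24 cannot change a sign. Bcl3 crosses the lower dashed line after median scaling, and Rela lies inside the dotted line after quantile and loess scaling.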

How the data were processed

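Total RNA of F2 cells transfected with hBACCS2 was hybridised to Clariom S mouse arrays, 1 with blue light and 1 without. The authors deposited log2 signals that they had normalized in version 3.2 of Filgen's Microarray Data Analysis Tool. How it normalizes, and whether background was corrected, was not given in the sources used here. Such processing can compress or shift differences of dim genes. Of 28846 rows, 6640 are controls and enter no count. The platform annotation names 19572 of the 22206 gene probe sets and leaves 2634 unnamed here, and no symbol was found for Nfkb1 through its gene identifier either. Members and lists were chosen with earlier results of these data known. Named genes were all members, list genes past the 2-fold cutoff and, of the others, up to 4 per list with the largest absolute log2 difference. Nfkbid was named as an IkB gene outside the members. Further genes, namely Map3k7, Ikbkg, Fbxw11, Cul1, Birc2, Tnfaip3, Cyld, Crebbp, Ep300, Malt1, Bcl10, Bcl2l1, Cxcl1, Tnf and the endothelial markers, were named after their values were seen. The adhesion molecule genes and the other chemokine genes among the targets were also named after that. Differences were taken from the deposited values, each probe set on its own. Alternatives were median, quantile and loess scaling (span 0.3), signal cutoffs of 50, 100 or none, a fold of 1.5, 24 added to both signals, and means per gene symbol. The calls and scalings were tested on simulated data, with planted differences larger than that of any member, in probe sets with a mean signal over 100. That check therefore says nothing about calls near a cutoff or in dimmer genes. Python 3.11.15, numpy 2.4.6, pandas 2.3.3 and statsmodels 0.14.6 were used.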

Additional observations from a re-analysis of the deposited data

How the results depend on the processing

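Precision is limited by the number of arrays, 1 per condition. No paired analysis was possible because each condition has a single array, and for the same reason no array could be left out. A value was taken as moved where it changed by more than 0.114 on the log2 scale, the SD of the 8 spiked controls' differences. The signs of the 9 members were kept in all 45 values recomputed under median, quantile and loess scaling, with 24 added to both signals, and as means per gene symbol. Much of this was fixed in advance. Adding 24 to both signals cannot change a sign, and each member has a single probe set, so its mean equals the deposited value. Median scaling shifts every difference by the same amount. Of the 45 values, 4 moved, all with 24 added to both signals, which by its construction shrinks differences of dim genes: Nfkbiz was then at 0.60, Rel at 0.64, Bcl3 at -0.84 and Relb at 0.11. At the 2-fold cutoff the count of lower members was 1 after median scaling, which was Bcl3, and the count of higher members was 0 under every setting tried at that fold. Among all gene probe sets 196 of 11701 were lower after median scaling, against 160 of 11695 as deposited. At a fold of 1.5 there were 2 higher and 2 lower members. Counts at that fold under other settings were added after seeing the data. There was then 1 lower member under quantile and loess scaling, where Rela, at -0.56 under the second, was no longer counted, and 0 higher with a signal over 100 on both arrays, since Rel and Nfkbiz are dimmer than that without blue light. With that signal cutoff 4 members remained, and their median was -0.56, against -0.39 for the 7 over 24. Of 28 medians of the surrounding gene lists recomputed under the scalings or with 24 added, 26 kept their sign, and that of the brakes, -0.03 as deposited, was 0.01 under quantile and 0.02 under loess scaling. Relb and Nfkbie lie too close to the negative controls for any setting to give a usable difference.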
